A study of Mus musculus with 18 samples.

Results

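Interferon-stimulated antiviral genes were followed in mouse splenic B cells that were left resting or stimulated for 4 hr in culture with anti-IgM or with LPS. The set holds 39 genes of 28096 in the count tables, chosen by name as genes that type I interferon is known to induce and matched by their Entrez numbers. All 39 were among the 14161 genes with enough reads to be tested. The genes were chosen with results of these data known, so that the counts and medians over the set describe these libraries and carry no test of the set.

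There were 18 RNASeq libraries, 3 for each of 6 groups. WT and Ubqln1-/- mice, labelled as C57BL/6 N and at least 8 weeks old, gave splenic B cells by magnetic isolation. The cells were cultured without stimulus, with anti-IgM F(ab)2 at 10 μg/mL, which crosslinks the B cell receptor, or with 20 μg/mL LPS of E. coli K12, which is sensed by TLR4. In Ubqln1-/- mice exon 2 of Ubqln1 is deleted in every cell, since the deletion was made in the ES cells that founded the line. RNA of triplicate wells was pooled, so that a library averages wells, and the labels call the 3 libraries of a group biological replicates. The replicate numbers link samples of the different groups, as described with the processing. Ubqln1 itself, of which only 1 exon is removed, was at 229 to 339 CPM (counts scaled to the effective library size) in WT libraries and at 91.4 to 128 CPM in Ubqln1-/- libraries. The 9 B cell markers summed to 7607 to 9698 CPM in resting and LPS libraries and to 3424 to 4213 CPM in anti-IgM libraries. Of the marker lists of other cells, 8 of 8 genes of neutrophils, 5 of 6 of NK cells, 5 of 9 of T cells (among them Cd3e), 3 of 10 of macrophages and monocytes (C1qa, C1qb and C1qc), 2 of 6 of plasmacytoid dendritic cells, 1 of 6 of conventional dendritic cells and 2 of 5 of erythroid cells were below 1 CPM in all 18 libraries. Others on these lists were detected, such as Lck (30.7 to 222 CPM), Pacsin1 (18.1 to 73.1 CPM), Zbtb46 (4.09 to 41.9 CPM) and Adgre1 (4.66 to 39.4 CPM). Total counts were 15368941 to 41072854 per library. The 3 WT LPS libraries (28590363 to 41072854) were each deeper than the 3 Ubqln1-/- LPS libraries (17224952 to 27515442), and the part of depth in the genotype differences was not tested.

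Type I interferon binds the receptor IFNAR1/IFNAR2 and acts through JAK kinases on STAT factors, among them STAT2, which joins IRF9 in the complex ISGF3. ISGF3 binds a DNA element, the interferon-stimulated response element (ISRE), at genes whose products restrict viruses. LPS can start this program through TLR4, the adaptor TRIF, the kinase TBK1 and IRF3, which drive interferon-β and also some ISRE genes directly. A low level of the same genes is held in resting cells by tonic interferon signaling.

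The ISRE letters were looked for in promoter sequences because they are the element by which the set is known to be induced. RefSeq sequences of GRCm38.p6, from 250 bases before to 50 bases after the transcription start, were held for 29 of the 39 genes. The ISRE core, GAAA then any 2 bases then GAAA, occurred on either strand in 14 of the 29 (on the other strand it reads TTTC, any 2 bases, TTTC). Of 27025 genes with such a sequence, 3.99% had a match in any window. More than 1 match in a window, which may overlap, occurred in 6 of the 14. The stretches below run 5′ to 3′ on the strand of the gene, end before the start of transcription and have the matches in capitals. Only genes with a match are shown. Ifit1, Ifit3, Isg15 and Rsad2 were taken because they had large LPS responses. Oas1a was taken because its match is close to the start, and Bst2 because it departed from the others with anti-IgM.
Ifit1 (chr19:34640755-34640843, + strand): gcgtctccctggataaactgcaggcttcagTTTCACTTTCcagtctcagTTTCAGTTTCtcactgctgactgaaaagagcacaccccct
Ifit3 (chr19:34583343-34583446, + strand): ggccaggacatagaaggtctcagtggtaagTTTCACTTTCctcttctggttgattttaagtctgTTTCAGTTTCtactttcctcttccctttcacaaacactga
Isg15 (chr4:156200845-156200926, - strand): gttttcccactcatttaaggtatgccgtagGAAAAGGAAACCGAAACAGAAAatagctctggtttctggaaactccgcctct
Rsad2 (chr12:26456533-26456602, - strand): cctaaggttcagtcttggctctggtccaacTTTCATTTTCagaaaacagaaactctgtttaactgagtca
Oas1a (chr5:120907526-120907575, - strand): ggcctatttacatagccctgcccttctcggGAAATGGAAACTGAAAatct
Bst2 (chr8:71537557-71537632, - strand): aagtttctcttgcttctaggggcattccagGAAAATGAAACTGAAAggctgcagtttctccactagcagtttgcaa
The first match began 104 bases before the start in Ifit1, 156 in Ifit3, 78 in Isg15, 120 in Rsad2, 20 in Oas1a and 130 in Bst2. The neighboring gene Ifit3b carried the same 104 bases as Ifit3, identical at 104 of 104 positions. Ifit2, Herc6, Trim25, Oasl1, Oasl2, Irf7, Irf9, Cmpk2, Xaf1 and Samd9l were among the genes with no match in these windows. Oasl1, without a match, had an LPS log2 fold change of 3.80 in WT cells, whereas Stat2 and Ddx58 had a match and were not called there. A κB motif, GGG then any 2 bases then TTTCC on either strand, was in 0 of the 29 and in 1.89% of all genes. A GAS motif, TTC then any 3 bases then GAA, was in 6 of the 29 and in 9.55% of all genes. A match describes the letters and was not tested as a binding site.

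Several members lie side by side in the genome. Ifit1, Ifit2, Ifit3 and Ifit3b occupy chr19:34550550-34650009, the OAS genes Oas1a, Oas2, Oas3, Oasl1 and Oasl2 are on chromosome 5, and Rsad2 and Cmpk2 are neighbors on chromosome 12. Dtx3l and Parp9 (chr16:35926515-35972621) overlap, and 8 of the 39 overlap another counted gene. The kit does not mark strand, so that reads of overlapping genes on opposite strands cannot be told apart. Of the 50-base stretches of their transcripts, the length of the reads, Ifit3 shared 51.2% with another gene, Ifit3b 45%, Oas1a 57.6% and Phf11b 47%. How such reads were counted is not given in the sources used here, and the values of these 4 genes are uncertain for that reason. RefSeq lists Mx1 and Mx2 of the reference strain as transcribed pseudogenes, and their values are transcript levels of these defective alleles.

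**Figure D1:**
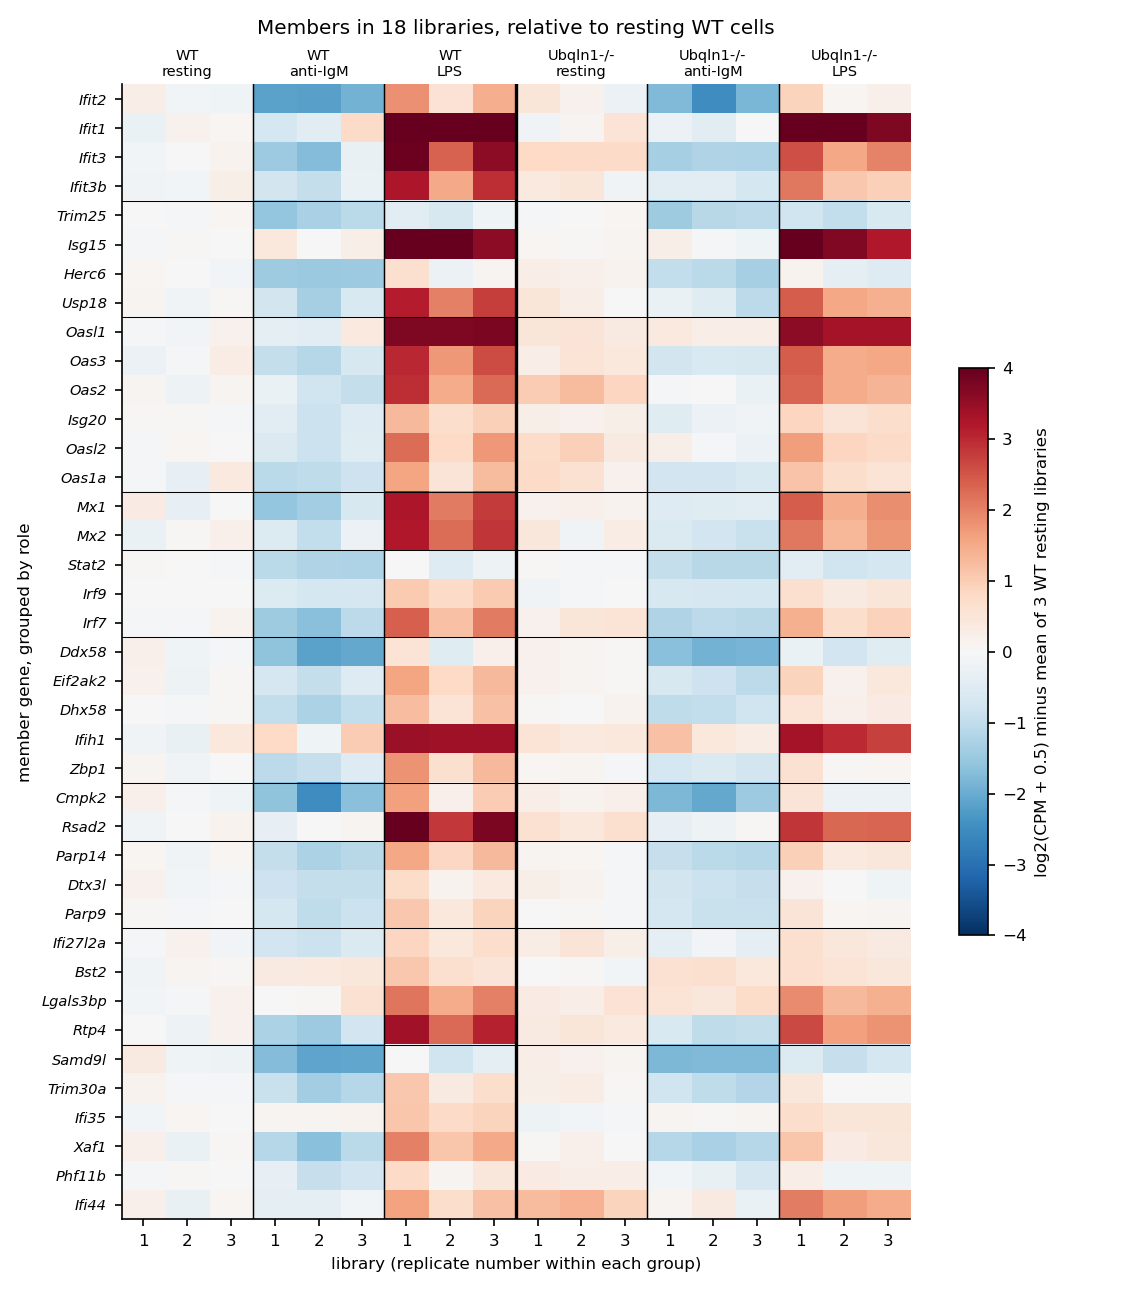
Each row is 1 of the 39 members, grouped by role, and each column is 1 of the 18 libraries. Color gives log2(CPM + 0.5) minus the mean of the 3 WT resting libraries; LPS columns are red for most members, anti-IgM columns are blue for most, and WT LPS replicate 2 is paler than replicates 1 and 3 for most. Colors are capped at 4 in either direction.

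LPS raised most of the set in WT cells. Of the 39 genes, 34 were higher with LPS than in resting cells and 1, Trim25, was lower at an adjusted p under 0.05 (edgeR quasi-likelihood test, Benjamini-Hochberg), while 31.2% of all tested genes were called higher and 30.1% lower. The median log2 fold change was 1.36 over the set and -0.01 over all tested genes. With the replicate number as a block, the genes called lower were 3 (Trim25, Stat2 and Samd9l), beside 34.0% of all tested genes, and the genes called higher were again 34. The 6 markers of conventional dendritic cells were also higher in sum with LPS. The sums were 14.1 to 23.6 CPM at rest against 42.1 to 72.9 CPM in WT cells. In Ubqln1-/- cells they were 18.3 to 22.9 CPM against 54.4 to 59.1 CPM. In their highest libraries Zbtb46, Flt3 and Itgax were at 41.9, 24.7 and 5.93 CPM. Xcr1, Clec9a and Clec10a were at most at 2.08, 1.23 and 0.0639 CPM. The part of these markers in the response of the set was not tested. In bulk RNA a change in the share of responding cells and a change in RNA per cell cannot be told apart. In Ubqln1-/- cells 21 of the 39 were higher and 5 lower, beside 30.6% and 30.2% of all tested genes, with a median of 0.57. Levels per transcript length (RPKM computed from the counts) were highest in WT LPS cells for Ifi27l2a (77.2), Isg15 (74.4) and Oasl1 (67.2), and lowest for Ifi44 (0.391). In resting WT cells Samd9l (57.9 RPKM), Trim25 (52.5 RPKM) and Ifi27l2a (48.0 RPKM) led, and the median of the set was 4.08 RPKM against 12.5 RPKM with LPS.

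**Figure D2:**
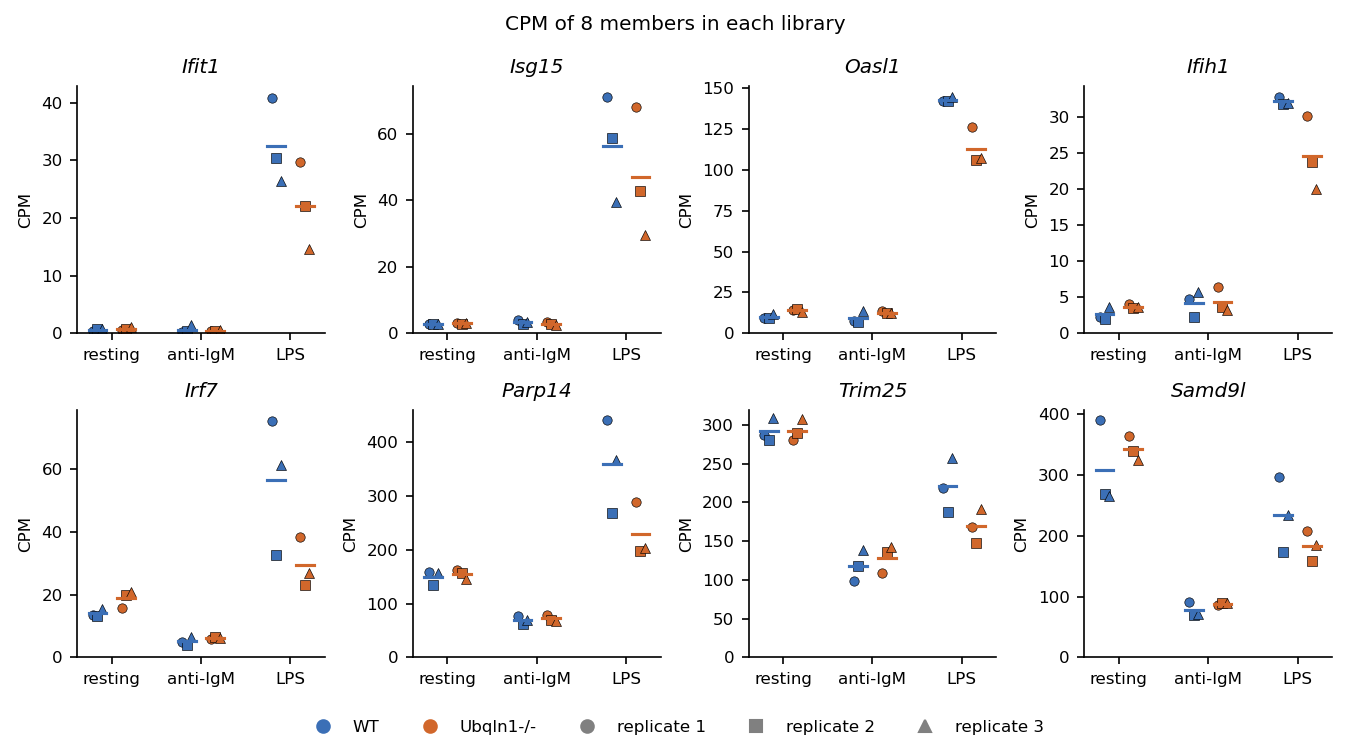
CPM of 8 members in each library, by condition, with WT in blue and Ubqln1-/- in orange; symbols give the replicate number, lines the mean of 3 libraries, and each panel starts at 0. Ifit1, Isg15, Oasl1 and Ifih1 are low without LPS, whereas Trim25 and Samd9l have their highest means in resting cells.

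The IFIT proteins, which bind viral RNA lacking host cap marks, included the gene with the largest LPS change, Ifit1. In WT cells Ifit1 was at 0.447, 0.779 and 0.697 CPM in resting replicates 1 to 3, 0.199, 0.341 and 1.42 with anti-IgM and 40.9, 30.4 and 26.4 with LPS. Among Ubqln1-/- libraries it was at 0.521, 0.716 and 1.14 CPM resting, 0.466, 0.344 and 0.639 with anti-IgM and 29.7, 22.1 and 14.6 with LPS. The lowest LPS library of either genotype was above every other library, and the log2 fold change was 5.61 ± 0.41 (SE) in WT and 4.80 ± 0.40 in Ubqln1-/- cells. Ifit3 went from 1.28, 1.40 and 1.64 CPM in WT resting cells to 28.7, 9.48 and 22.8 with LPS, and from 2.89, 2.77 and 2.80 to 11.2, 5.15 and 7.08 in Ubqln1-/- cells. With anti-IgM Ifit3 was at 0.199, 0.0757 and 1.06 CPM in WT cells and 0.266, 0.344 and 0.319 in Ubqln1-/- cells, below every resting library in both genotypes. The LPS change of Ifit3 was 3.80 ± 0.45 in WT and 1.45 ± 0.42 in Ubqln1-/- cells. Ifit2, with the highest mean CPM of the family in WT LPS cells, already stood at 17.2, 12.9 and 12.5 in WT and 20.0, 16.1 and 11.8 CPM in Ubqln1-/- resting cells. It reached 51.5, 21.3 and 39.3 CPM with LPS in WT and 26.7, 14.8 and 16.2 in Ubqln1-/- cells, where resting and LPS libraries overlapped. With anti-IgM Ifit2 dropped to 2.79, 2.73 and 3.44 CPM and 3.79, 2.13 and 3.60 CPM, a change of -2.25 ± 0.35 on the log2 scale for WT and -2.34 ± 0.33 for Ubqln1-/-. Ifit3b followed Ifit3 at a lower level, between 2.24 and 8.69 CPM with LPS in WT cells, on few reads outside LPS (2, 0 and 6 counts with anti-IgM in WT cells).

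The ISG15 conjugation genes split. Isg15 encodes a ubiquitin-like modifier and Usp18 the protease that removes it, which also blocks the interferon receptor. Herc6 and Trim25 encode ubiquitin or ISG15 ligases, and TRIM25 activates the RNA sensor RIG-I. Isg15 was at 2.68, 2.92 and 2.84 CPM in WT resting cells, 3.95, 2.84 and 3.39 with anti-IgM and 70.8, 58.5 and 39.4 with LPS. Its Ubqln1-/- values were 3.03, 2.95 and 3.08 CPM resting, 3.39, 2.69 and 2.46 with anti-IgM and 68.1, 42.6 and 29.7 with LPS. LPS libraries of both genotypes lay far above all others and overlapped each other, with log2 fold changes over resting of 4.31 ± 0.29 in WT and 3.95 ± 0.28 in Ubqln1-/- cells. Trim25 went the other way, from 287, 280.4 and 309 CPM to 218, 187 and 258 with LPS and 98.8, 117 and 139 with anti-IgM in WT cells. For Ubqln1-/- cells Trim25 was at 279.9, 289 and 307 CPM resting, 168, 148 and 191 with LPS and 109, 136 and 142 with anti-IgM. Every stimulated library was below every resting one, and the LPS change was -0.40 ± 0.13 in WT and -0.79 ± 0.13 in Ubqln1-/- cells. Herc6 was at 22.9, 21.6 and 20.1 CPM at rest, 7.78, 7.42 and 7.59 CPM with anti-IgM, and 33.6, 18.3 and 23.3 CPM with LPS in WT cells. In Ubqln1-/- cells it was at 25.9, 25.0 and 23.7 CPM at rest, 10.7, 9.83 and 8.35 CPM with anti-IgM, and 23.5, 16.4 and 15.0 CPM with LPS. Resting and LPS libraries of Herc6 overlapped in WT cells, whereas in Ubqln1-/- cells every LPS library was below every resting one, and anti-IgM was the lowest condition in both. Usp18 changed with LPS by 2.91 ± 0.33 in WT and by 1.73 ± 0.32 in Ubqln1-/- cells.

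All 6 OAS and RNase genes were called higher with LPS in WT cells, beside 31.2% of all tested genes. In Ubqln1-/- cells 4 of 6 were, beside 30.6%. OAS enzymes sense double-stranded RNA and activate RNase L, the OAS-like proteins lack or modify that activity, and ISG20 is an RNA exonuclease. Oasl1 was at 9.65, 9.39 and 11.6 CPM at rest, 7.74, 7.23 and 13.6 CPM with anti-IgM, and 142, 142 and 144 CPM with LPS in WT cells. Among Ubqln1-/- libraries it was at 14.5, 14.8 and 13.2 CPM at rest, 13.5, 12.5 and 12.3 CPM with anti-IgM, and 126, 106 and 107 CPM with LPS. The WT LPS libraries nearly coincided, all 3 Ubqln1-/- LPS libraries lay below them, and all 3 Ubqln1-/- resting libraries lay above the WT resting ones. The LPS change of Oasl1 was 3.80 ± 0.17 in WT and 2.99 ± 0.16 in Ubqln1-/- cells. Oas3 rose from 2.43, 2.84 and 3.73 to 27.5, 11.0 and 20.8 CPM with LPS in WT and from 3.69, 4.61 and 4.17 to 18.2, 9.24 and 9.55 CPM in Ubqln1-/- cells. Oas2 rose from 3.07, 2.38 and 3.14 to 25.2, 8.79 and 15.4 CPM in WT and from 6.25, 7.52 and 5.50 to 16.2, 8.90 and 8.07 CPM in Ubqln1-/- cells. For Oas2 every Ubqln1-/- resting library was above every WT resting library, and the LPS change was 2.53 ± 0.35 in WT and 0.77 ± 0.32 in Ubqln1-/- cells. With anti-IgM Oas3 was at 1.28, 1.06 and 1.72 CPM in WT and 1.56, 1.75 and 1.73 in Ubqln1-/- cells, and Oas2 at 2.27, 1.44 and 1.22 and 2.66, 2.88 and 2.28 CPM. Oas1a, Oasl2 and Isg20 had LPS changes of 1.06 to 1.83 in WT cells and of 0.31 to 0.52 in Ubqln1-/- cells.

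The 2 Mx genes, whose products in other strains are GTPases that trap viral nucleocapsids, both rose with LPS. Mx1 was at 2.68, 1.52 and 1.99 CPM at rest, 0.359, 0.454 and 1.11 CPM with anti-IgM, and 23.3, 10.2 and 17.1 CPM with LPS in WT cells. For Ubqln1-/- cells Mx1 was at 2.37, 2.37 and 2.28 CPM at rest, 1.26, 1.28 and 1.37 CPM with anti-IgM, and 13.1, 6.39 and 8.56 CPM with LPS. Mx2 was at 0.831, 1.17 and 1.34 CPM at rest, 0.598, 0.303 and 0.861 CPM with anti-IgM, and 14.2, 7.01 and 11.2 CPM with LPS in WT cells. The Ubqln1-/- values of Mx2 were 1.70, 0.939 and 1.47 CPM at rest, 0.566, 0.438 and 0.365 CPM with anti-IgM, and 6.36, 3.53 and 4.99 CPM with LPS. For both genes LPS libraries did not overlap with resting ones in either genotype, and all 3 Ubqln1-/- LPS libraries of Mx2 were below the 3 WT ones. The LPS change was 3.06 ± 0.34 for Mx1 and 3.24 ± 0.32 for Mx2 in WT, and 1.98 ± 0.33 and 1.84 ± 0.32 in Ubqln1-/- cells.

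Among the transcription factors, Irf7, which amplifies interferon production, changed most. Irf7 was at 13.5, 13.2 and 15.4 CPM in WT resting cells, 4.87, 4.01 and 6.48 with anti-IgM and 75.1, 32.5 and 61.2 with LPS. In Ubqln1-/- cells it was at 15.9, 19.9 and 20.7 CPM resting, 5.86, 6.45 and 6.16 with anti-IgM and 38.3, 22.9 and 27.0 with LPS. The LPS change was 2.00 ± 0.25 in WT and 0.63 ± 0.25 in Ubqln1-/- cells, and the anti-IgM change was -1.47 ± 0.28 and -1.61 ± 0.27. Irf9, the DNA-binding subunit of ISGF3, was at 74.4, 75.8 and 76.7 CPM resting, 51.9, 45.8 and 47.0 with anti-IgM and 158, 129.6 and 155 with LPS in WT cells. Its Ubqln1-/- values were 68.7, 71.5 and 75.8 CPM resting, 48.8, 47.1 and 46.3 with anti-IgM and 118, 97.5 and 105 with LPS. The 3 groups of each genotype did not overlap, and with LPS all 3 Ubqln1-/- libraries were below the 3 WT ones. Stat2, the ISGF3 subunit that carries the activation domain, was highest in resting cells. It was at 198, 188 and 183 CPM at rest, 90.4, 82.3 and 80.6 CPM with anti-IgM, and 187, 131 and 166 CPM with LPS in WT cells. Among Ubqln1-/- libraries it was at 195, 186 and 181 CPM at rest, 98.8, 87.0 and 88.0 CPM with anti-IgM, and 138, 108 and 116 CPM with LPS. The LPS change of Stat2 was -0.23 ± 0.11 in WT cells, which was not called, and -0.63 ± 0.11 in Ubqln1-/- cells, which was.

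The cytosolic sensors also differed among themselves. Ifih1 and Ddx58 encode the RNA sensors MDA5 and RIG-I, Dhx58 their regulator LGP2, Zbp1 a Z-nucleic acid sensor of cell death and Eif2ak2 the kinase PKR, which stops translation when it binds double-stranded RNA. Ddx58 was at 106, 80.7 and 87.7 CPM in WT resting cells, 29.6, 20.1 and 21.4 with anti-IgM and 131, 64.8 and 105 with LPS. Its Ubqln1-/- values were 103, 98.7 and 94.4 CPM resting, 27.9, 24.3 and 24.6 with anti-IgM and 76.2, 53.1 and 65.2 with LPS. Resting and LPS libraries of Ddx58 overlapped in WT cells (0.14 ± 0.20) and did not in Ubqln1-/- cells, where LPS was lower (-0.61 ± 0.20). Eif2ak2 was at 27.0, 20.6 and 24.6 CPM at rest, 15.0, 12.2 and 16.6 CPM with anti-IgM, and 72.7, 42.4 and 59.3 CPM with LPS in WT cells, and at 26.9, 25.8 and 24.5 CPM at rest, 15.3, 13.4 and 11.2 CPM with anti-IgM, and 45.3, 27.2 and 31.9 CPM with LPS in Ubqln1-/- cells. Dhx58 was at 20.5, 20.1 and 21.3 CPM at rest, 10.1, 8.22 and 10.3 CPM with anti-IgM, and 49.3, 30.5 and 47.1 CPM with LPS in WT cells, and at 21.2, 20.2 and 22.9 CPM at rest, 9.89, 10.1 and 11.6 CPM with anti-IgM, and 30.1, 23.9 and 25.9 CPM with LPS in Ubqln1-/- cells. For both genes LPS was the highest and anti-IgM the lowest condition, without overlap, in either genotype. The LPS change in WT cells was 1.27 ± 0.20 for Eif2ak2 and 1.03 ± 0.15 for Dhx58. Ifih1 had the largest LPS change of the sensors, 3.61 ± 0.30 in WT and 2.73 ± 0.29 in Ubqln1-/- cells, and Zbp1 had 1.36 ± 0.23 and 0.22 ± 0.24.

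The neighboring genes Rsad2 and Cmpk2 belong to a nucleotide pathway. RSAD2 (viperin) makes a chain-terminating nucleotide from the CTP that CMPK2 can supply. Rsad2 was at 0.639, 0.779 and 0.896 CPM resting, 0.518, 0.757 and 0.861 with anti-IgM and 19.6, 8.59 and 16.8 with LPS in WT cells. For Ubqln1-/- cells it was at 1.42, 1.21 and 1.47 CPM resting, 0.499, 0.595 and 0.821 with anti-IgM and 8.73, 5.79 and 5.93 with LPS. Every Ubqln1-/- resting library was above and 2 of 3 Ubqln1-/- LPS libraries were below every WT library of that condition, and the LPS change was 4.25 ± 0.31 in WT and 2.31 ± 0.29 in Ubqln1-/- cells. Cmpk2, at 9.33, 7.71 and 6.97 CPM in WT resting cells, was at 2.27, 1.02 and 2.18 with anti-IgM and 26.0, 9.25 and 16.6 with LPS. The Ubqln1-/- values of Cmpk2 were 9.61, 8.77 and 9.25 CPM resting, 1.93, 1.57 and 2.55 with anti-IgM and 11.6, 6.72 and 6.64 with LPS. Its LPS change was 1.11 ± 0.31 in WT and -0.16 ± 0.32 in Ubqln1-/- cells, and its anti-IgM change was -2.14 ± 0.37 and -2.21 ± 0.36.

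The PARP genes were among the more abundant members. PARP9 pairs with the ubiquitin ligase DTX3L, and PARP14 is an ADP-ribosyltransferase. Parp14 was at 159, 135 and 156 CPM resting, 76.3, 62.1 and 69.6 with anti-IgM and 441, 268 and 367 with LPS in WT cells. In Ubqln1-/- cells Parp14 was at 163, 157 and 146 CPM resting, 79.5, 70.4 and 67.6 with anti-IgM and 288, 198 and 203 with LPS. The 3 conditions did not overlap in either genotype, and LPS changed Parp14 by 1.26 ± 0.16 in WT and by 0.56 ± 0.16 in Ubqln1-/- cells. Parp9 was at 60.5, 55.5 and 57.9 CPM at rest, 35.1, 28.5 and 32.0 CPM with anti-IgM, and 123, 77.7 and 108 CPM with LPS in WT cells, and at 58.2, 59.9 and 56.3 CPM at rest, 35.0, 30.9 and 31.0 CPM with anti-IgM, and 82.6, 61.0 and 61.8 CPM with LPS in Ubqln1-/- cells. Dtx3l was at 90.2, 74.1 and 75.6 CPM at rest, 44.7, 41.2 and 41.0 CPM with anti-IgM, and 133, 88.6 and 104 CPM with LPS in WT cells, and at 94.0, 88.7 and 77.3 CPM at rest, 47.4, 44.1 and 42.1 CPM with anti-IgM, and 89.3, 78.1 and 70.5 CPM with LPS in Ubqln1-/- cells. For both genes anti-IgM libraries were below all others, and the LPS libraries of Dtx3l overlapped with resting ones in both genotypes. Both were called higher with LPS in WT cells (0.83 ± 0.14 and 0.44 ± 0.12), and neither passed in Ubqln1-/- cells (0.23 ± 0.14 and -0.13 ± 0.13).

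Of the membrane-associated products, Bst2 encodes tetherin, which holds budding virions at the cell surface, Lgals3bp a secreted galectin ligand, Rtp4 a receptor transporter and Ifi27l2a a small membrane protein. Bst2 was at 18.3, 21.9 and 21.3 CPM at rest, 26.5, 27.1 and 28.3 CPM with anti-IgM, and 43.4, 32.0 and 29.7 CPM with LPS in WT cells, and at 20.8, 21.0 and 19.1 CPM at rest, 31.2, 31.9 and 27.7 CPM with anti-IgM, and 32.9, 30.1 and 28.0 CPM with LPS in Ubqln1-/- cells. Both stimuli raised Bst2 above every resting library, and anti-IgM changed it by 0.41 ± 0.12 in WT and by 0.58 ± 0.12 in Ubqln1-/- cells. Lgals3bp was at 7.09, 7.13 and 8.71 CPM at rest, 7.54, 7.84 and 12.0 CPM with anti-IgM, and 35.6, 22.2 and 32.2 CPM with LPS in WT cells, and at 9.75, 9.17 and 11.6 CPM at rest, 11.3, 10.6 and 13.0 CPM with anti-IgM, and 29.6, 19.5 and 21.5 CPM with LPS in Ubqln1-/- cells. Ifi27l2a was at 21.0, 25.0 and 20.7 CPM at rest, 12.9, 12.0 and 14.7 CPM with anti-IgM, and 41.0, 29.8 and 36.5 CPM with LPS in WT cells, and at 27.1, 31.8 and 26.2 CPM at rest, 16.7, 20.5 and 17.2 CPM with anti-IgM, and 34.7, 30.6 and 28.6 CPM with LPS in Ubqln1-/- cells. For Lgals3bp every LPS library was above every other library, and for Ifi27l2a every anti-IgM library of a genotype was below its resting ones. LPS changes in WT cells were 1.97 ± 0.21 for Lgals3bp, 0.68 ± 0.13 for Ifi27l2a and 3.20 ± 0.31 for Rtp4.

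The remaining members include Samd9l, a translation-restricting antiviral factor that had the highest resting level per length. Samd9l was at 391, 268 and 266 CPM resting, 91.0, 69.3 and 72.1 with anti-IgM and 297, 173 and 235 with LPS in WT cells. Its Ubqln1-/- values were 364, 339.8 and 325 CPM resting, 86.3, 89.6 and 89.1 with anti-IgM and 208, 158 and 186 with LPS. Resting and LPS libraries overlapped in WT cells and did not in Ubqln1-/- cells, and the LPS change was -0.39 ± 0.17 and -0.90 ± 0.17. Trim30a, a TRIM protein that dampens TLR signaling, was at 133, 115 and 112 CPM resting, 64.0, 45.6 and 54.0 with anti-IgM and 253, 154 and 197 with LPS in WT cells. Among Ubqln1-/- libraries it was at 142, 146 and 122 CPM at rest, 69.3, 59.1 and 52.8 CPM with anti-IgM, and 163, 121 and 121 CPM with LPS, where resting and LPS libraries overlapped. Ifi35 was at 43.9, 49.4 and 47.8 CPM at rest, 51.1, 50.9 and 51.8 CPM with anti-IgM, and 102, 80.2 and 88.0 CPM with LPS in WT cells, and at 41.0, 43.6 and 45.5 CPM at rest, 50.3, 49.0 and 51.3 CPM with anti-IgM, and 76.3, 66.5 and 65.8 CPM with LPS in Ubqln1-/- cells. It was the member that was lower in Ubqln1-/- cells in 3 of 3 same-numbered pairs in all 3 conditions. With anti-IgM these differences were small, at 51.1 against 50.3, 50.9 against 49.0 and 51.8 against 51.3 CPM in WT against Ubqln1-/- cells. No share of all tested genes is given for this count of pairs. Ifi44, the least abundant member in resting WT cells, was at 0.320, 0.0779 and 0.249 CPM in WT and 1.18, 1.34 and 0.806 CPM in Ubqln1-/- resting cells, on 5, 2 and 5 and 25, 30 and 17 counts. Xaf1, a proapoptotic protein, changed by 1.69 ± 0.24 with LPS in WT and by 0.60 ± 0.25 in Ubqln1-/- cells, and Phf11b had 0.49 ± 0.18 and -0.33 ± 0.19.

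**Figure D3:**
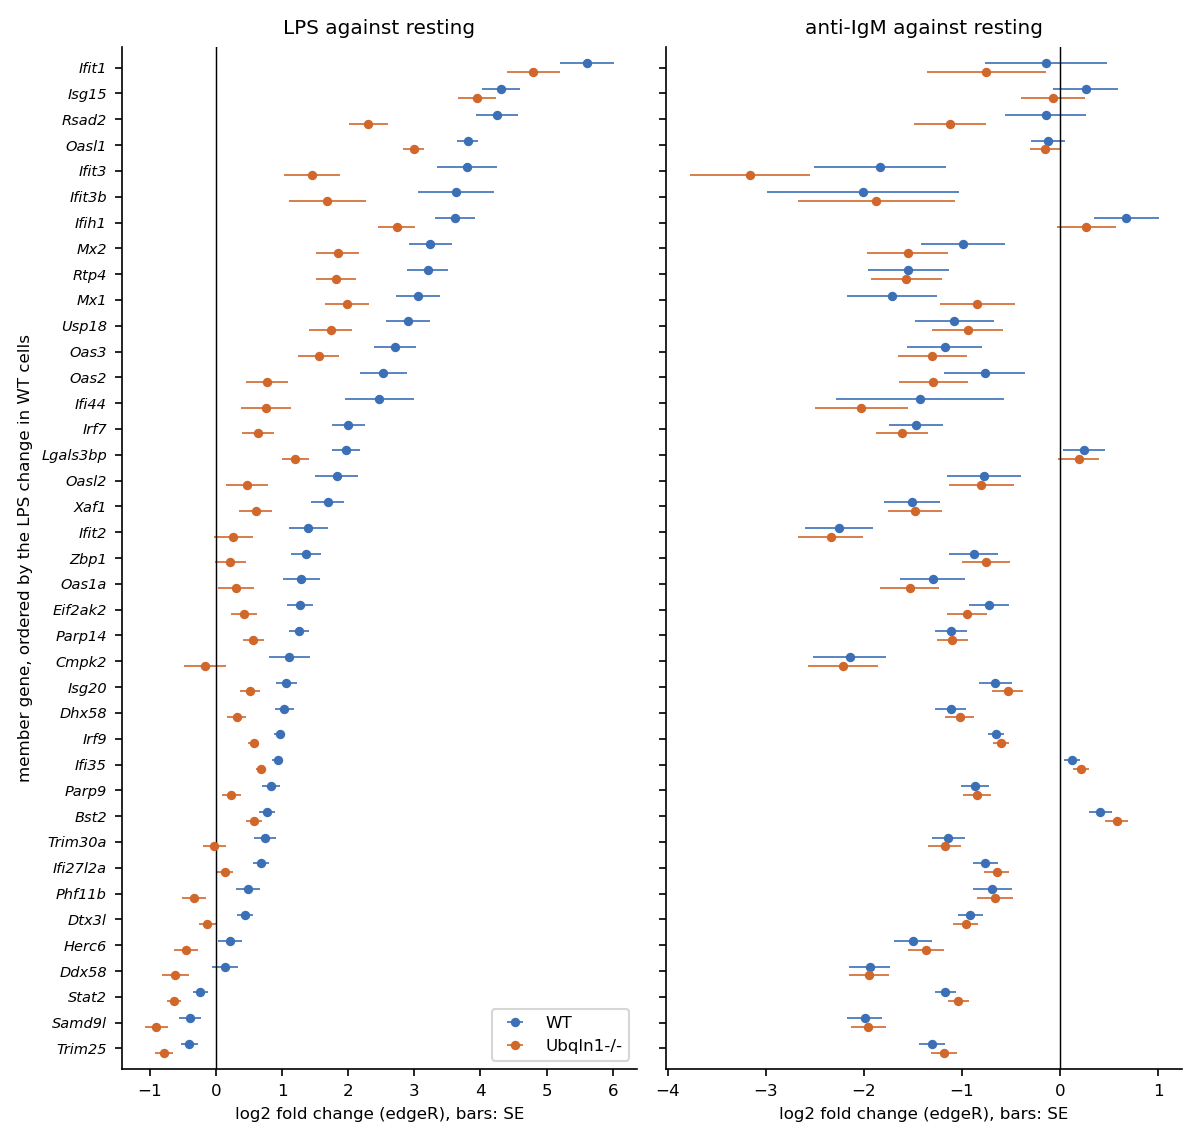
Log2 fold change (edgeR, bars SE) of each of the 39 members with LPS (left) and with anti-IgM (right) against resting cells, in WT (blue) and Ubqln1-/- cells (orange), ordered by the LPS change in WT cells. Both panels share the resting libraries of each genotype; LPS changes run from -0.40 to 5.61 in WT cells and are shifted left in Ubqln1-/- cells, and anti-IgM changes are mostly below 0.

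Anti-IgM lowered most of the set. In WT cells 26 of the 39 were lower and 1, Bst2, was higher than in resting cells, beside 32.2% and 32.4% of all tested genes, with a median log2 fold change of -1.08 over the set and -0.01 over all tested genes. In Ubqln1-/- cells 31 were lower and 2 (Bst2 and Ifi35) higher, beside 32.4% and 32.9%, with a median of -1.04. The largest decreases in WT cells were those of Ifit2 (-2.25), Cmpk2 (-2.14), Samd9l (-1.99) and Ddx58 (-1.94) among the called genes. Ifit1, Isg15, Oasl1, Ifih1 and Lgals3bp were not called by edgeR with anti-IgM in either genotype. Sums of cell type markers moved with anti-IgM as well, those of B cells from 8107 to 9698 CPM down to 3424 to 4213 CPM, of T cells from 49.6 to 65.1 CPM up to 152 to 244 CPM and of plasmacytoid dendritic cells from 36.6 to 49.2 CPM up to 78.6 to 86.2 CPM in WT cells, and their part was not tested. Cd3d, Cd3e, Cd3g, Cd4 and Cd8b1 of the T cell list were below 1 CPM in every library, as were Siglech and Cox6a2 of the plasmacytoid list. In their highest libraries Lck, Cd5 and Il7r were at 222, 22.2 and 22.4 CPM, and Pacsin1 and Ccr9 at 73.1 and 15.5 CPM. The difference between the anti-IgM responses of the genotypes had a median of -0.02 over the set. Compared directly, LPS was above anti-IgM for 39 of 39 genes in WT cells, beside 17.4% of all tested genes called higher and 15.0% lower, and no WT LPS library overlapped with a WT anti-IgM library for any member, beside 21.5%. In Ubqln1-/- cells 37 of 39 were higher with LPS than with anti-IgM, beside 16.8% called higher and 14.5% lower, and Bst2 and Phf11b did not pass. These comparisons share libraries with those against resting cells.

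With LPS nearly all estimates of the genotype difference lay below 0. The median log2 fold change between genotypes was -0.58 over the 39 genes and 0.00 over all tested genes, and 38 of 39 estimates were below 0. Few single genes passed the test: 1 of 39, Irf9 (-0.46 ± 0.08), was called lower and 0 higher, beside 0.0282% and 0.0141% of all tested genes. With the replicate number as a block (WT and Ubqln1-/- LPS libraries of the same number varied together), 22 of 39 were called lower, beside 0.607%, and 0 higher. They included Ifit2, Ifit3, Usp18, Mx1, Mx2, Stat2, Irf7, Ddx58, Eif2ak2, Rsad2, Cmpk2 and Parp14. Without the block DESeq2 called 11 lower, beside 0.261% of all tested genes, and limma with voom 1, beside 0.0212%. Without WT LPS replicate 2, edgeR called 15 lower, beside 0.246%, without Ubqln1-/- LPS replicate 1, Ubqln1-/- resting replicate 3 or WT anti-IgM replicate 1 it called 1, and without any of the other 14 libraries it called 0. At an unadjusted p under 0.05, 28 of 39 were lower, beside 2.14% of all tested genes. In 8 of 39 all 3 Ubqln1-/- LPS libraries lay below all 3 WT ones (3.35% of all tested genes), and in the other 31 the groups overlapped. Depth also separated the groups, as given above. Of 6 markers of plasmacytoid dendritic cells, which can make interferon, Siglech and Cox6a2 were below 1 CPM throughout. The 6 summed to 26.8 to 32.4 CPM in WT and 19.0 to 26.7 CPM in Ubqln1-/- LPS libraries, and their part in the difference was not tested. Pacsin1 alone, at 18.1 CPM or more in every library, made up most of these sums.

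Libraries with the same number stood apart in both genotypes. In WT LPS cells replicate 2 was the lowest library for 35 of 39 members and replicate 1 the highest for 37. Ubqln1-/- LPS replicate 1 was the highest of its group for 38, and replicate 2 was the lowest for 22 and replicate 3 for 17. The median SD between LPS replicates on the log2 CPM scale was 0.43 over the set and 0.14 over all tested genes in WT cells, and 0.33 and 0.12 in Ubqln1-/- cells. Within same-numbered pairs (log2 CPM, prior count 2) 34 of 39 were lower in Ubqln1-/- LPS cells in 3 of 3 pairs, beside 15.3% of all tested genes. The median difference over the set was -0.58 in pair 1, -0.35 in pair 2 and -0.80 in pair 3. Ifit3 differed by -1.36, -0.87 and -1.68, Rsad2 by -1.16, -0.56 and -1.49 and Zbp1 by -1.20, -0.62 and -1.27 in pairs 1 to 3. Irf7 differed by -0.97, -0.51 and -1.18 and Irf9 by -0.42, -0.41 and -0.56, the latter with the more even pairs. Isg15 (-0.06, -0.46 and -0.41) and Oasl1 (-0.17, -0.42 and -0.43) were closer between genotypes. Ifi44 alone was higher in 3 of 3 pairs, by 0.54, 1.32 and 0.39, at 1.48 to 2.44 CPM in Ubqln1-/- LPS cells.

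**Figure D4:**
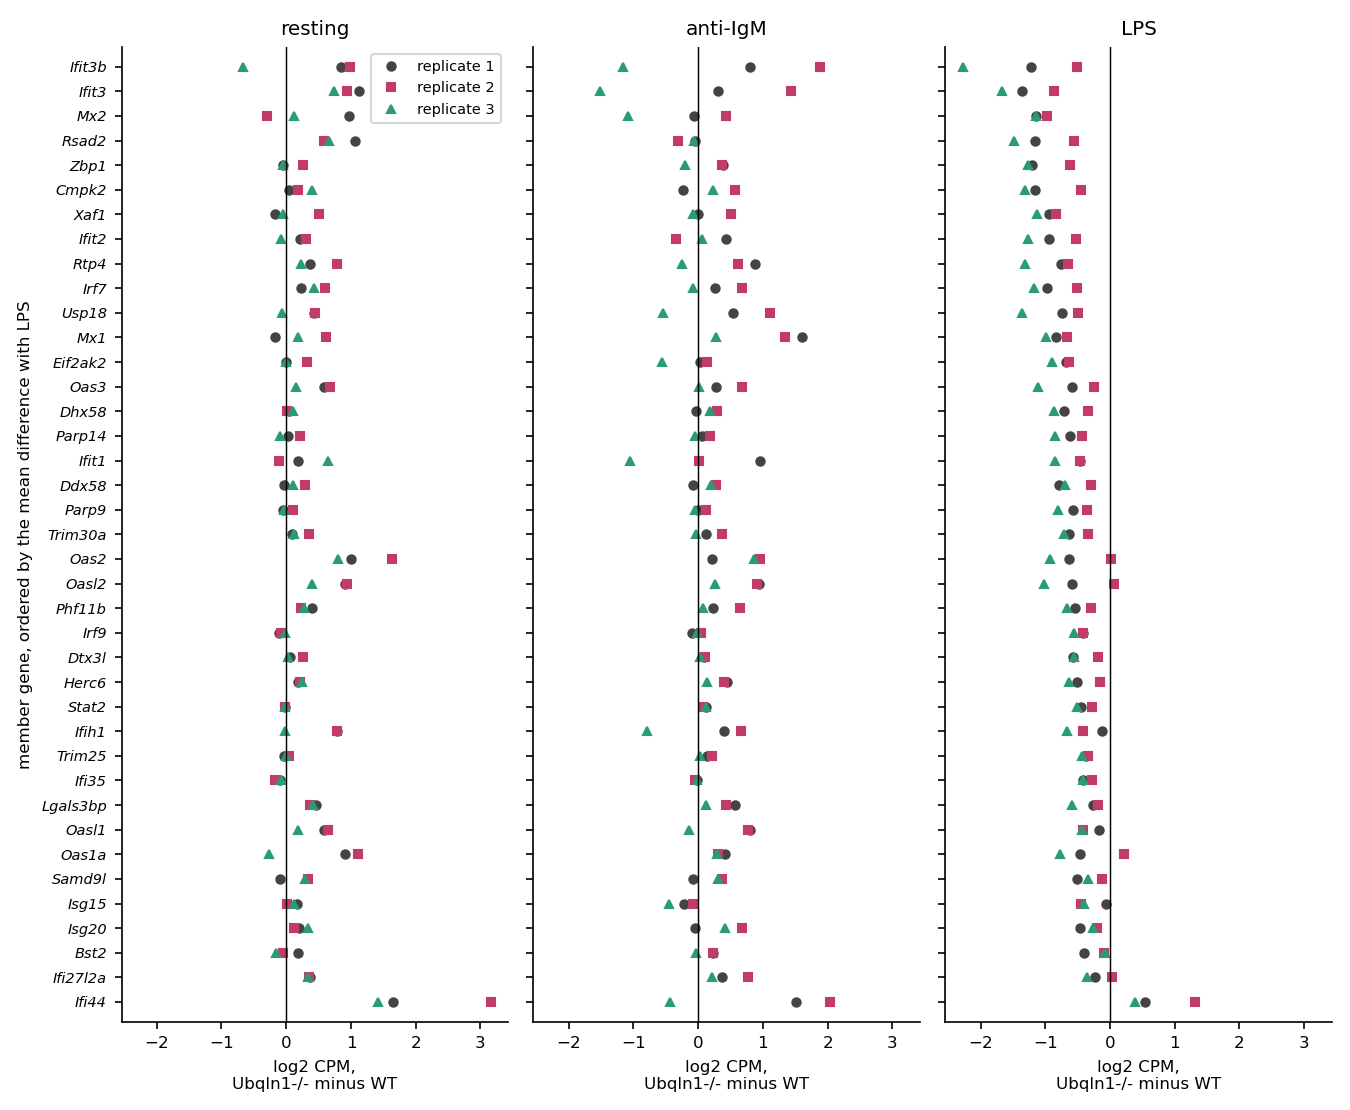
Difference in log2 CPM between the Ubqln1-/- and the WT library of the same replicate number, for each member (rows) in resting, anti-IgM and LPS cells; symbols give the 3 replicate numbers and the line marks 0. With LPS 34 of 39 members have all 3 points left of 0, and in resting cells 19 have all 3 right of it.

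In resting cells the set leaned the other way. The median log2 fold change between genotypes was 0.22 over the set, 35 of 39 estimates were above 0, and 0 of 39 were called (0.0212% of all tested genes were called higher and 0.0353% lower). At an unadjusted p under 0.05, 6 of 39 were higher and 0 lower, beside 2.42% and 1.79% of all tested genes. DESeq2 called 1 higher, Ifi44, beside 0.148% of all tested genes, and limma with voom 0. All 3 Ubqln1-/- resting libraries lay above all 3 WT ones for 14 of 39, beside 4.45% of all tested genes, and 19 were higher in 3 of 3 pairs, beside 13.7%. The median difference in pairs 1 to 3 was 0.19, 0.32 and 0.12 over the set and 0.002, 0.0002 and 0.005 over all tested genes. The pairing was weak here, as deviations from group means correlated at only 0.08 to 0.30 between same-numbered resting libraries of the genotypes. The largest estimates were those of Ifi44 (2.46 ± 0.54), Oas2 (1.18 ± 0.36), Ifit3 (0.96 ± 0.50), Rsad2 (0.80 ± 0.38) and Oasl2 (0.78 ± 0.34). With anti-IgM the median was 0.15, 0 of 39 were called by edgeR, DESeq2 or limma with voom, beside 0.0847% of all tested genes called higher and 0.0141% lower by edgeR. At an unadjusted p under 0.05, 4 were higher, beside 3.21%. The median difference in anti-IgM pairs 1 to 3 was 0.23, 0.40 and -0.02 over the set and 0.001, -0.003 and 0.006 over all tested genes.

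The interaction, the LPS response of Ubqln1-/- cells minus that of WT cells, was below 0 for 39 of 39 members with a median of -0.82, against 0.00 for all tested genes. It reached no adjusted p under 0.05 for any of 14161 genes with edgeR, limma or DESeq2. With the replicate number as a block, edgeR called no member for it either. At an unadjusted p under 0.05 edgeR had 34 of 39 members lower, beside 1.09% of all tested genes, limma with voom 30, beside 1.05%, and DESeq2 35, beside 0.946%. Over all tested genes edgeR had 65 higher and 155 lower at that threshold. Without WT LPS replicate 2, edgeR called 3 members lower, beside 0.0702% of all tested genes. For the response to anti-IgM, 0 of 39 had an unadjusted p under 0.05 with edgeR, and 82 higher and 58 lower of 14161 genes did, of which 0 had an adjusted p under 0.05.

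**Figure D5:**
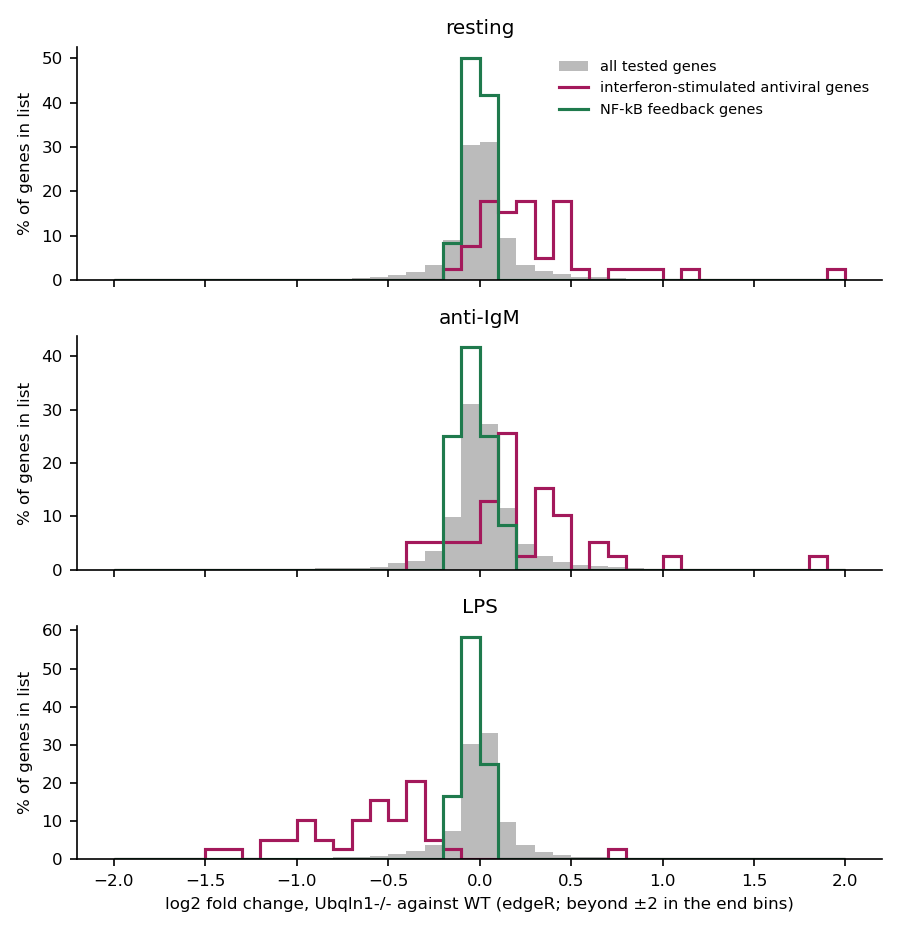
Share of genes in each list (percent, bins of 0.1) by the log2 fold change between Ubqln1-/- and WT cells, in resting, anti-IgM and LPS cells; gray is all 14161 tested genes, magenta the 39 members and green 12 NF-kB feedback genes. Values beyond 2 are in the end bins. With LPS the members' median is -0.58, and that of the NF-kB feedback genes is -0.04.

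Feedback genes of NF-kB, another transcription factor that TLR4 activates, were followed for comparison, with the subunit genes Nfkb1, Nfkb2, Rel and Relb among them. All 12 were called higher with LPS in both genotypes, beside 31.2% of all tested genes in WT and 30.6% in Ubqln1-/- cells, at a median of 1.31 (log2) for WT and 1.28 for Ubqln1-/-. Between genotypes with LPS their median was -0.04 and ranged from -0.18 to 0.06, with 0 of 12 called by edgeR, with or without the replicate block, and 0 at an unadjusted p under 0.05. The median SD between their WT LPS replicates was 0.10. Markers of marginal zone B cells summed to 1004 to 1123 CPM in WT and 1001 to 1060 CPM in Ubqln1-/- LPS libraries, and those of follicular B cells to 3048 to 3457 and 3436 to 3577 CPM. The part of B cell subsets in the genotype difference was not tested.

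Genes that make, sense and transmit interferon were listed separately, and 37 of 45 could be tested. In WT cells 14 of the 37 were called higher and 8 lower with LPS, beside 31.2% and 30.1% of all tested genes, and 6 higher and 18 lower with anti-IgM, beside 32.4% and 32.2%. Between genotypes with LPS 0 of 37 were called by edgeR, beside 0.0141% of all tested genes higher and 0.0282% lower. At an unadjusted p under 0.05, 2 were lower, beside 2.14% of all tested genes, and 1 was higher. The replicate block called 2 lower, beside 0.607%, and 1 higher. Of the other ligands, Ifna1, Ifna2, Ifna5, Ifne, Ifnk, Ifnl2 and Ifnl3 were not tested, with at most 7 counts in any library and with Ifne and Ifnl3 at 0 in all 18. Ifnb1 was not detected in any resting or anti-IgM library and was at 0, 0.127 and 0.107 CPM in WT and 0.0594, 0.113 and 0 CPM in Ubqln1-/- LPS libraries, on 0, 5 and 3 and 1, 3 and 0 counts. Ifna4 was the only type I ligand tested, at 0.969, 1.37 and 0.501 CPM in WT and 0.535, 0.902 and 0.549 CPM in Ubqln1-/- LPS cells, on 30, 54 and 14 and 9, 24 and 10 counts. In WT resting cells Ifna4 had 1, 0 and 2 counts, and its rise with LPS was called (edgeR adjusted p = 4.20e-04). Ifng, the type II ligand, rose with anti-IgM in WT cells (1.67 ± 0.39, edgeR adjusted p = 0.00133) and fell with LPS (-2.17 ± 0.51, edgeR adjusted p = 0.00147), from 2.30, 1.48 and 0.946 CPM in resting cells.

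The receptor chains Ifnar1 and Ifnar2 were at 161, 145 and 165 and 69.2, 69.4 and 72.9 CPM in WT LPS cells and at 155, 142 and 170.1 and 65.3, 66.2 and 77.9 CPM in Ubqln1-/- LPS cells, and the genotypes overlapped. Ifnar1 fell slightly with LPS in WT cells (-0.32 ± 0.07, edgeR adjusted p = 8.29e-04). Ifngr1 and Ifngr2 did not pass with LPS and fell with anti-IgM (-1.06 ± 0.11 and -1.11 ± 0.10, edgeR adjusted p = 2.41e-07 and 8.01e-08). Ifnlr1, the lambda interferon receptor, rose with LPS in WT cells (1.32 ± 0.17, edgeR adjusted p = 3.61e-06). Il10rb, which encodes the chain that pairs with it, fell (-0.32 ± 0.08, edgeR adjusted p = 0.00321). Ifnlr1 was at 5.18, 5.65 and 6.17 CPM in WT and 10.1, 11.5 and 8.25 CPM in Ubqln1-/- resting cells and at 12.1, 16.5 and 13.9 and 17.9, 21.5 and 21.5 CPM with LPS. Every Ubqln1-/- library was above every WT library of those conditions, but the difference was not called (edgeR adjusted p = 0.132 resting and 0.507 with LPS).

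In the branch from TLR4 to interferon, Tlr4 mRNA fell with LPS in WT cells from 21.2, 21.9 and 20.5 to 5.59, 4.57 and 7.69 CPM (-1.84 ± 0.18, edgeR adjusted p = 2.30e-07). Ikbke, a kinase of IRF3 and IRF7, rose from 13.7, 17.3 and 17.1 to 60.7, 63.2 and 52.5 CPM (1.87 ± 0.11, edgeR adjusted p = 3.20e-09), and was at 68.9, 63.2 and 50.9 CPM in Ubqln1-/- LPS cells. Ticam2, the TRAM adaptor that couples TLR4 to TRIF, rose by 1.61 ± 0.24 (edgeR adjusted p = 2.42e-05). Ticam1, which encodes TRIF, Tbk1 and Irf3 did not pass, with LPS changes of -0.15 ± 0.08, -0.08 ± 0.05 and 0.00 ± 0.06. Myd88, the adaptor of the other TLR4 branch, and the ubiquitin ligases Traf3 and Traf6 rose (0.44 ± 0.05, 0.52 ± 0.07 and 0.26 ± 0.05, edgeR adjusted p = 3.31e-06, 7.85e-06 and 1.82e-04). Ly96, the MD-2 partner of TLR4, fell (-0.76 ± 0.20, edgeR adjusted p = 0.00312). Cd14, a co-receptor for LPS with at most 20 counts in any library, and Cd180 did not pass (0.43 ± 1.02 and -0.19 ± 0.19). The genotype differences of Ticam1, Tbk1 and Irf3 with LPS were 0.06 ± 0.08, -0.03 ± 0.05 and -0.02 ± 0.06. Irf2, a repressor at ISRE sites, fell with LPS (-1.16 ± 0.10, edgeR adjusted p = 7.12e-08), and Socs3, an inhibitor of cytokine receptors, rose (1.27 ± 0.32, edgeR adjusted p = 0.00226).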

How the data were processed

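RNASeq was made from poly-A RNA of 18 samples with a kit that does not mark strand, read as single-end 50-base reads. The submitters' processing notes name GSNAP, GRCm38, limma and R 3.2.2. The authors deposited, per gene and sample, raw counts over exons, the width of the gene in bases, and RPKM values. The counting program, its annotation release and its use of strand are not given in the sources used here. Counts were analysed as deposited. The deposited RPKM values were used only to check the counts, which made up 83.8% to 88.4% of the library totals that the RPKM values imply, and the RPKM printed here was computed from the counts and widths. Entrez numbers were named through a RefSeq table, which matched 25035 of 28096 (89.1%).

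Groups follow the labels. Replicate numbers 2 and 3 were read from the titles, and titles without a number were taken as replicate 1. The labels call the samples biological replicates without naming animals, so p-values measure the spread between these samples. Between replicates the chi-square per degree of freedom was 8.06 to 32.4, so that none was a repeat of another within sampling noise. Same-numbered libraries deviated together from their group means: all 3 correlations were over 0.1 for 13 of 15 pairs of groups, with 0.08 as the lowest for WT against Ubqln1-/- resting cells and 0.06 for WT resting against Ubqln1-/- anti-IgM cells.

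Genes passing filterByExpr (14161) were fitted over all 18 samples with edgeR 4.0.16 (TMM factors 0.958 to 1.038, quasi-likelihood test, Benjamini-Hochberg, adjusted p under 0.05) in R 4.3.3. The prior count was 2 for log2 CPM. Alternatives were limma 3.58.1 with voom, DESeq2 1.42.0, RLE normalization, other count filters, fits of only the compared groups, the replicate block, calls with a log2 fold change over 1, and each sample left out in turn. Scripts were tested on simulated data. Python 3.11.15, numpy 2.4.6, pandas 2.3.3 and matplotlib 3.10.9 did the rest. Promoters came from RefSeq, GRCm38.p6.

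The members and the lists (interferon induction and signaling, NF-kB feedback, GBP and IRG GTPases, PYHIN, Schlafen, and markers of B cells and their subsets, T cells, NK cells, macrophages and monocytes, neutrophils, erythroid cells and dendritic cells) were chosen with earlier results of these data known. Values in every sample are given for at most 3 members per role, those of highest mean CPM in WT LPS cells, and for a member that differed in 1 direction in all pairs of all conditions. Values of Ifi44 and Ifit3b, and the lists of largest changes, were chosen after they were seen. Ligands, receptors and genes of the TRIF branch were named whatever their values, other signaling genes where the LPS log2 fold change in WT cells was over 1 in size with an adjusted p under 0.05.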

Additional observations from a re-analysis of the deposited data

Results flagged for a closer look

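Dtx3l and Phf11b moved with LPS in opposite directions in the genotypes in every same-numbered pair. Dtx3l changed by 0.56, 0.26 and 0.46 (log2 CPM, pairs 1 to 3) in WT cells and by -0.07, -0.18 and -0.13 in Ubqln1-/- cells, and its fitted LPS response was -0.57 in Ubqln1-/- minus WT cells. Phf11b changed by 0.85, 0.07 and 0.48 in WT cells and by -0.09, -0.46 and -0.46 in Ubqln1-/- cells, with a fitted difference of -0.82. Both were called higher in WT cells by edgeR. The decreases in Ubqln1-/- cells were not called without the replicate block, and with it only that of Phf11b was. Phf11b shares 47% of its 50-base stretches with other genes, and Dtx3l overlaps Parp9, so that their counts may hold reads of other genes. Neither interaction passed an adjusted p under 0.05 with edgeR, which called 0 of 14161 genes (65 higher and 155 lower at an unadjusted p under 0.05).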

How the results depend on the processing

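Of 265 counts and medians recomputed without leaving out a sample, 248 stayed within the limit and 17 moved, and 0 members changed sign where called. LPS in WT cells: members called lower were 0 at a log2 fold change over 1, 2 with DESeq2, 2 with at least 10 counts in every sample and 3 with the replicate block. LPS in Ubqln1-/- cells: at a log2 fold change over 1, 13 were higher and 0 lower. Anti-IgM in WT cells: 0 were higher at a log2 fold change over 1 and 2 with DESeq2. Anti-IgM in Ubqln1-/- cells: 0 were higher at a log2 fold change over 1, and the median was -1.004 with no filter beyond a total of 1 count. LPS against anti-IgM in Ubqln1-/- cells: the median was 1.33 with at least 10 counts in every sample, which leaves fewer members. Ubqln1-/- against WT, resting: 1 (Ifi44) was higher with DESeq2 and with the replicate block. Ubqln1-/- against WT, LPS: members lower were 0 at a log2 fold change over 1, 11 with DESeq2, 0 in a fit of only the groups compared and 22 with the replicate block. Counts elsewhere stayed within 1.5 times under the block. Where a share of all tested genes was held for a setting, it is given above with that result. For the other settings the counts are given without one and do not set the members apart from other genes. Apart from the stricter calls and filters, the cause of these moves was not tested.

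Leaving out each library in turn, members called lower with LPS ranged from 0 (without WT LPS replicate 2) to 3 (without WT LPS replicate 1; 2 without WT resting replicate 2) in WT cells, and from 3 (without Ubqln1-/- LPS replicate 2) to 5 in Ubqln1-/- cells. Members higher with anti-IgM ranged from 1 to 2 in WT cells, with a median of -1.13 to -0.89 (-0.89 without WT anti-IgM replicate 2), and from 1 to 2 in Ubqln1-/- cells, with a median of -1.07 to -0.99. Between genotypes, members higher with anti-IgM ranged from 0 to 1 (without WT anti-IgM replicate 3). Members lower with LPS ranged from 0 to 15 (without WT LPS replicate 2, beside 0.246% of all tested genes). The LPS interaction ranged from 0 to 3 called lower (3 without WT LPS replicate 2, beside 0.0702% of all tested genes), with a median of -1.05 to -0.65. The anti-IgM interaction had a median of -0.15 to 0.0822. Other counts with a library left out are given without a share of all tested genes. Libraries of 15368941 or more counts left the low members, such as Ifi44 and Ifit3b, on few counts outside LPS, where differences may be below what this depth can show.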

Other observations

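Other interferon-inducible families, which are no members, are given for comparison. Of 13 tested GBP and IRG GTPases, which attack vacuoles of intracellular pathogens, 10 rose and 0 fell with LPS in WT cells, 6 rose and 1 fell in Ubqln1-/- cells, and 12 fell with anti-IgM in each genotype (edgeR, adjusted p under 0.05). For these and the next lists the shares of all tested genes were 31.2% higher and 30.1% lower with LPS in WT cells, 30.6% and 30.2% in Ubqln1-/- cells, and 32.2% and 32.4% lower with anti-IgM in WT and Ubqln1-/- cells. Between genotypes with LPS the shares were 0.0141% higher and 0.0282% lower, and 0.607% lower with the replicate block. The GBP and IRG genes had a median genotype difference with LPS of -0.25 on the log2 scale, with 0 called and 3 lower with the replicate block. Of 9 PYHIN genes, some of them DNA sensors, 4 rose and 2 fell with LPS in WT cells, 2 rose and 5 fell in Ubqln1-/- cells, and 6 fell with anti-IgM in each genotype. Their median genotype difference with LPS was -0.41, with 0 called and 4 lower with the block. Of 7 Schlafen genes, 2 rose and 1 fell with LPS in WT cells, 0 rose and 5 fell in Ubqln1-/- cells, and 6 fell with anti-IgM in each genotype. Their genotype difference with LPS had a median of -0.19, with 0 called and 2 lower with the block.

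Among genes with a mean of at least 5 CPM in their highest group, those whose log2 CPM followed the mean of the 39 members most closely over the 18 libraries, which share 6 groups, included Irgm1 (Pearson r = 0.984), Gm12250 (0.979), Gm6548 (0.975), Ifi47 (0.965), Olfr56 (0.963), Birc3 (0.958), Baz1a (0.955), Lpcat1 (0.954) and Helz2 (0.953), with 1 unnamed gene at 0.967. Gm6548 overlaps the member Eif2ak2. Between genotypes with LPS, Irgm1 had a log2 fold change of -0.54 and Gm12250 of -0.91, whereas Birc3 had -0.03, Baz1a -0.04 and Lpcat1 0.15.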
